A study of Homo sapiens with 2 samples.

Results

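The UGT2B genes UGT2B4, UGT2B7, UGT2B10, UGT2B11, UGT2B15, UGT2B17 and UGT2B28 encode UDP-glucuronosyltransferases of the endoplasmic reticulum membrane. They were read by name from a table of 57351 gene symbols, and all 7 were listed there. RNA-seq was run on 22Rv1, an established castration-resistant human prostate cancer cell line, from cells with a short hairpin RNA against EIF3F (shEIF3F) and from cells with the control vector (shCON). The EIF3F protein belongs to the translation initiation complex eIF3. A single library stood for each group, so no difference below has a replicate check, an error or a p-value, and off-target effects of the hairpin and loss of EIF3F cannot be told apart. Levels are the authors' TPM, in which reads are divided by transcript length and then scaled within a library, and the read depth behind them is unknown. The genes were chosen by their TPM in these same libraries, as members of a family seen to be higher in shEIF3F, so their levels and ratios are a description.

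These enzymes join glucuronic acid, taken from UDP-glucuronic acid, to lipophilic molecules, which makes them water-soluble and ready for export. UGT2B15 and UGT2B17 are the members best known in the prostate, where they conjugate dihydrotestosterone and its metabolite androstanediol and so end the androgen signal. Both are known to be repressed by androgen in prostate cancer cells. UGT2B28 also accepts androgens, UGT2B7 has a broad range of substrates that includes steroids and drugs, UGT2B4 acts on bile acids in liver, and UGT2B10 attaches glucuronic acid to the nitrogen of amines such as nicotine.

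EIF3F stood at 17.0 TPM in shEIF3F and 990.9 TPM in shCON (log2 ratio -5.78), in the direction of the labels. The log2 ratio here and below is log2((shEIF3F TPM + 1) / (shCON TPM + 1)), computed over the 13310 genes that averaged at least 1 TPM across the libraries. A log2 ratio of 1 or above is called at least 2-fold higher, and one of -1 or below at least 2-fold lower. The median of all genes was -0.36, and 8.44% of genes were called higher and 25.5% lower. Centring on that median adds 0.36 to every ratio and gave 14.7% higher and 16.0% lower. The prostate luminal keratin genes KRT8 (347 TPM in shEIF3F, 301 TPM in shCON) and KRT18 (336 TPM in shEIF3F, 173 TPM in shCON) were present in both libraries.

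The UGT2B family as a whole was higher in shEIF3F. The summed level of the 7 genes was 90.9 TPM in shEIF3F and 6.38 TPM in shCON, a linear ratio of 14.2 (log2 ratio 3.64, or 4.0 after centring). That sum made up 0.00914% of all TPM in shEIF3F and 0.000643% in shCON. In RNA of whole cultures, more expressing cells and more transcript per cell cannot be told apart. Every member had a higher listed value in shEIF3F than in shCON. The difference of 84.5 TPM came for 68.9% from UGT2B15, for 15.6% from UGT2B10, for 6.73% from UGT2B11 and for 6.46% from UGT2B17. Without UGT2B15, the other members summed to 28.98 TPM in shEIF3F and 2.67 TPM in shCON, a linear ratio of 10.9.

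**Figure D1:**
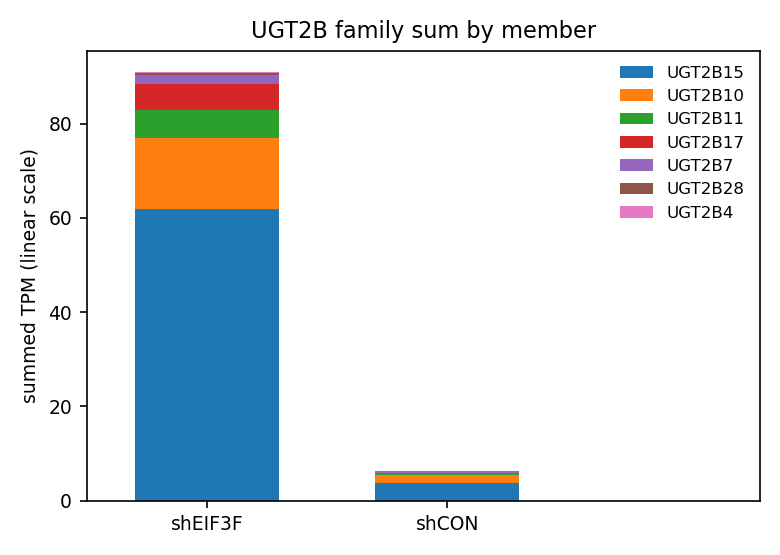
Summed TPM (linear axis) of the UGT2B genes in the shEIF3F and shCON libraries, with 1 bar per library and 1 colour per gene. The bar reaches 90.9 TPM in shEIF3F and 6.38 TPM in shCON, and UGT2B15 is the deepest block in both.

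Of the 7 members, 5 averaged at least 1 TPM, which is called measured below, and all 5 were at least 2-fold higher, where 8.44% of all genes tested were. The genes were chosen with these ratios known, and a gene near 0 in one library passes the minimum only through the other, so that count describes the family and supports nothing further. UGT2B4 and UGT2B28 did not reach the minimum.

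The genes are close in sequence, which bears on every single value. In GENCODE release 29 their coding sequences fell into groups of near copies. UGT2B15 and UGT2B17 were identical at 1535 of 1590 aligned coding bases (96.5%) and shared an identical run of 199 bases. UGT2B11 and UGT2B28 were 97.0% identical, and UGT2B10 was 95.3% identical to UGT2B11 and 94.3% to UGT2B28. UGT2B15 and UGT2B17 differed more from the other 5 genes, with identities from 84.6% to 86.4%.

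**Figure D2:**
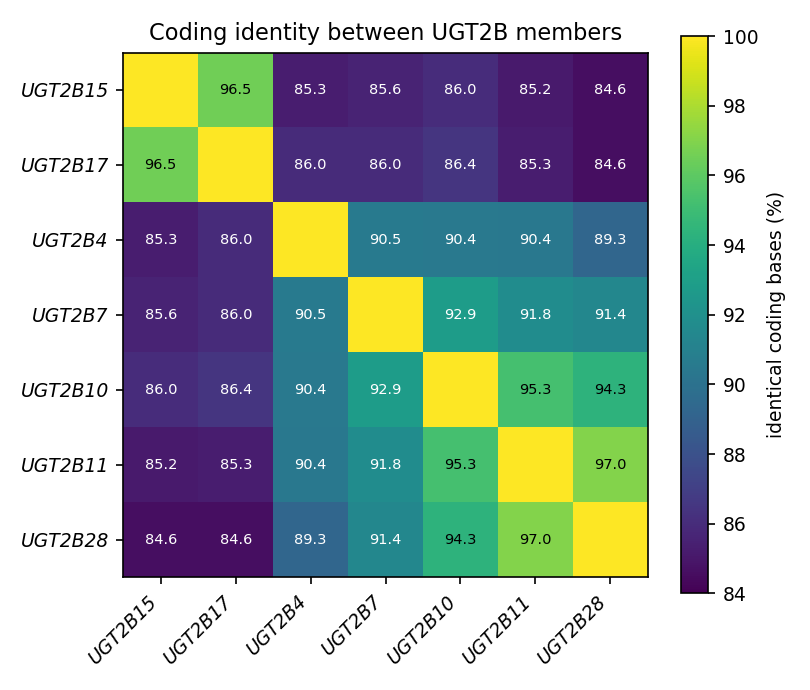
Percent of identical coding bases in pairwise alignments of the 7 UGT2B genes, where both axes list the genes and the colour bar gives percent. UGT2B15 and UGT2B17 stand together at 96.5%, and UGT2B10, UGT2B11 and UGT2B28 form a second block at 94.3% to 97.0%.

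To show how little separates the prostate pair, the 60-base coding stretch in which UGT2B15 and UGT2B17 differ most is printed 5′ to 3′, with the 9 differing bases in capitals. It covers coding bases 242 to 301 of exon 1 in both genes, at chr4:68670318-68670377 (minus strand) for UGT2B15 and chr4:68568184-68568243 (minus strand) for UGT2B17 in GRCh38.
UGT2B15: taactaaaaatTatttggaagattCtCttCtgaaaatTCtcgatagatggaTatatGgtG
UGT2B17: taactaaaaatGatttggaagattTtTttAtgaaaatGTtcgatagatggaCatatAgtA

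A read can be placed on 1 gene only where it spans such differences. Of all 50-base windows of the UGT2B15 transcript, 27.8% occurred unchanged in a transcript of another gene, almost all of them in UGT2B17. At 100 bases the share was 12.7%, all of it in UGT2B17. The shares at 50 bases were 40.9% for UGT2B11, 35.7% for UGT2B28, 31.7% for UGT2B10, 27.8% for UGT2B17, 6.75% for UGT2B7 and 3.16% for UGT2B4. At 100 bases they were 9.30% for UGT2B11, 6.60% for UGT2B10 and 5.71% for UGT2B28, and UGT2B7 and UGT2B4 had no shared window. No source used here gives the read length or the treatment of reads with several matches, so the part of shared reads in each value was not tested. Sums over near copies are therefore given beside the single values.

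UGT2B15 was the most abundant member in both libraries. It stood at 61.9 TPM in shEIF3F and 3.71 TPM in shCON, a linear ratio of 16.7 and a log2 ratio of 3.74. This ratio ranked 24 from the highest among the 13310 genes. Of 4256 genes whose shCON level lay within 2-fold of that of UGT2B15, 270 (6.34%) were at least 2-fold higher in shEIF3F, and 2, UGT2B15 itself included, reached its ratio. UGT2B15 was chosen with this ratio known, so the rank and these counts describe it and support nothing further. UGT2B15 made up 68.1% of the family sum in shEIF3F and 58.2% in shCON.

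UGT2B17 stood at 5.54 TPM in shEIF3F and 0.08 TPM in shCON. It was hardly listed in the control library and was clearly below UGT2B15 in both. The linear ratio was 69.2, and rounding of the deposited values to 2 decimals alone allows 65.1 to 73.9. On the log2(TPM + 1) scale the ratio was 2.60, below that of UGT2B15, because the added 1 TPM outweighs a control level of 0.08 TPM. With 0.1 TPM added it was 4.97, above the 4.02 of UGT2B15, so the order of the pair by ratio turned on that constant. The UGT2B17 level was 8.95% of the UGT2B15 level in shEIF3F and 2.16% in shCON. UGT2B15 and UGT2B17 together summed to 67.5 TPM in shEIF3F and 3.79 TPM in shCON, a linear ratio of 17.8.

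UGT2B10, UGT2B11 and UGT2B28, the second group of near copies, were also higher in shEIF3F. UGT2B10 was at 14.99 TPM in shEIF3F and 1.81 TPM in shCON (log2 ratio 2.51). UGT2B11 was at 6.03 TPM in shEIF3F and 0.34 TPM in shCON (log2 ratio 2.39). UGT2B28 was at 0.45 TPM in shEIF3F and was listed at 0 in shCON, so it has no fold. Their sum was 21.5 TPM in shEIF3F and 2.15 TPM in shCON, a linear ratio of 9.99. UGT2B10 amounted to 24.2% of the UGT2B15 level in shEIF3F and 48.8% in shCON, whereas UGT2B11 kept close to the same proportion, 9.74% in shEIF3F and 9.16% in shCON. UGT2B11 was the only member whose exons overlap another gene, the antisense transcript AC111000.4, listed at 0.06 TPM in shEIF3F and 0.02 TPM in shCON.

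UGT2B7 and UGT2B4, the members with the fewest shared windows, were low in both libraries. UGT2B7, the broad-range enzyme, was at 1.84 TPM in shEIF3F and 0.35 TPM in shCON, a linear ratio of 5.26. Its log2 ratio of 1.07 lay just past the 2-fold line and was 0.35 with 5 TPM added in place of 1. UGT2B4, the bile acid enzyme, was at 0.13 TPM in shEIF3F and 0.09 TPM in shCON, a linear ratio of 1.44 that rounding alone widens to between 1.32 and 1.59. UGT2B4 was thus the member whose levels in the libraries lay nearest to each other.

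**Figure D3:**
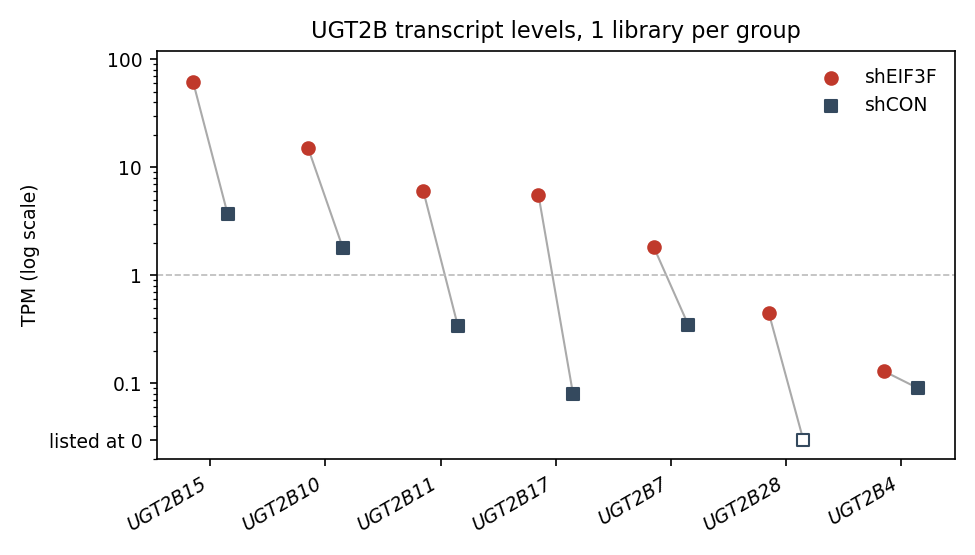
TPM (log axis) of each UGT2B gene in the shEIF3F library (red circles) and the shCON library (dark squares), ordered by mean level, with an open square for a gene listed at 0 and a dashed line at 1 TPM. Every circle lies above its square, and the gap is smallest for UGT2B4.

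In order of level, shEIF3F read UGT2B15, UGT2B10, UGT2B11, UGT2B17, UGT2B7, UGT2B28 and UGT2B4, and shCON read UGT2B15, UGT2B10, UGT2B7, UGT2B11, UGT2B4, UGT2B17 and UGT2B28. With 1 library a group, neighbours in these orders that lie close together, such as UGT2B11 and UGT2B17 at 6.03 and 5.54 TPM in shEIF3F or UGT2B7 and UGT2B11 at 0.35 and 0.34 TPM in shCON, cannot be ranked. The same holds for UGT2B4 and UGT2B17 at 0.09 and 0.08 TPM in shCON.

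**Figure D4:**
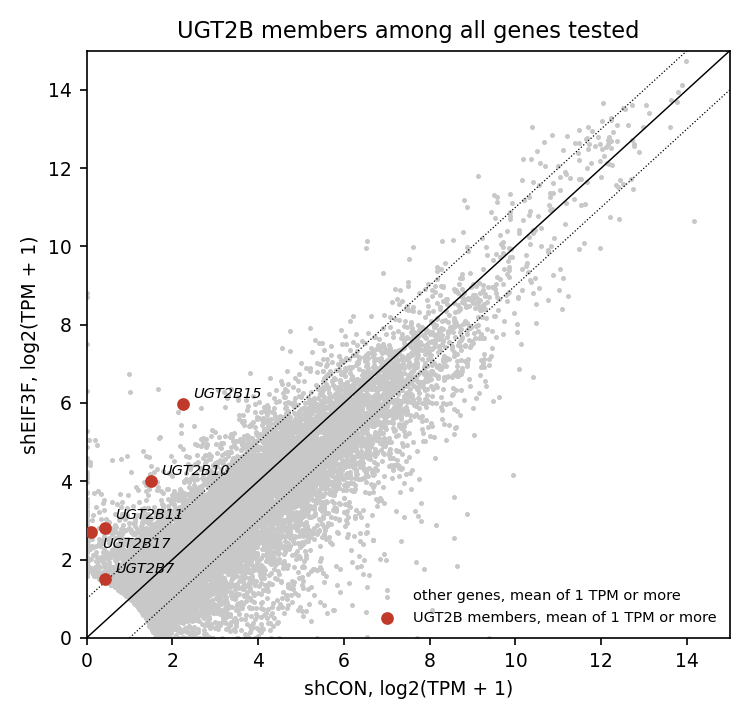
Each gene's level in shCON (x axis) and shEIF3F (y axis), both as log2(TPM + 1), for the 13310 genes tested, with the 5 measured UGT2B genes in red, a solid line of equal levels and dotted lines at 2-fold. The red points lie above the upper dotted line, UGT2B7 just past it and UGT2B15 the furthest above it at a log2 ratio of 3.74.

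The GC content of the members' transcripts ran from 37.9% to 40.0%, and the 5 measured members fell in 1 bin of transcript GC content, whose genes had a median log2 ratio of -0.03. With the GC trend of all genes removed, UGT2B15 was at 3.77, UGT2B17 at 2.63, UGT2B10 at 2.54, UGT2B11 at 2.42 and UGT2B7 at 1.10.

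The 7 genes lie in a cluster on chromosome 4, in the order UGT2B17, UGT2B15, UGT2B10, UGT2B7, UGT2B11, UGT2B28 and UGT2B4 in GENCODE release 29, which describes GRCh38. UGT2A3, an enzyme of the related UGT2A family that lies between UGT2B10 and UGT2B7, was at 0.02 TPM in shEIF3F and listed at 0 in shCON. UGT2A1 and UGT2A2, which follow UGT2B4, were listed at 0 in both libraries. On the other flank TMPRSS11E was listed at 0 in both, and the RNA methylation reader YTHDC1 was at 7.43 TPM in shEIF3F and 9.82 TPM in shCON. The sulfotransferase SULT1B1 beyond UGT2A2 was at 0.34 TPM in shEIF3F and 0.27 TPM in shCON. Of these neighbours only YTHDC1 was measured, and it was within 2-fold. Of 5 UGT2B pseudogenes, UGT2B27P was at 0.86 TPM in shEIF3F and listed at 0 in shCON, and the other 4 were listed at 0 in both. UGT2B27P contains 15.2% of the 50-base windows of UGT2B10.

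Because these genes differed in the same direction, the bases before their starts are shown for the 4 members held in the RefSeq promoter table, build GRCh38.p14. The sequences are the 250 bases upstream of the annotated start, 5′ to 3′ along the gene. They lie at chr4:68670653-68670902 (minus strand) for UGT2B15, chr4:68815744-68815993 (plus strand) for UGT2B10, chr4:69214749-69214998 (minus strand) for UGT2B11 and chr4:69096224-69096473 (plus strand) for UGT2B7. Capitals mark the longest run that UGT2B15, UGT2B10 and UGT2B11 have in common.
UGT2B15: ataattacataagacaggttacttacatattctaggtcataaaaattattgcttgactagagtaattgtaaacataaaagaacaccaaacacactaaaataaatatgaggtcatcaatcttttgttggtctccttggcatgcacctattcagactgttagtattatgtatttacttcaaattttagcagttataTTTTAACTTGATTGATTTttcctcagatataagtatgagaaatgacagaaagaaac
UGT2B10: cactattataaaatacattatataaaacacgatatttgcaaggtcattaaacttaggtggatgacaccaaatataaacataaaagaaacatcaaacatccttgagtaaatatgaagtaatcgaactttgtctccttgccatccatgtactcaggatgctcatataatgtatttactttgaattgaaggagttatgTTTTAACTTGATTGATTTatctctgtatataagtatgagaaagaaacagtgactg
UGT2B11: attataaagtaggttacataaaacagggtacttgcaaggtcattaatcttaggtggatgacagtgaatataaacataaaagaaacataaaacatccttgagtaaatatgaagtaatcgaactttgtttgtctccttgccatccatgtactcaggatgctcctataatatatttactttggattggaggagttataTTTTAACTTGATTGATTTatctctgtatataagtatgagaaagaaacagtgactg
UGT2B7: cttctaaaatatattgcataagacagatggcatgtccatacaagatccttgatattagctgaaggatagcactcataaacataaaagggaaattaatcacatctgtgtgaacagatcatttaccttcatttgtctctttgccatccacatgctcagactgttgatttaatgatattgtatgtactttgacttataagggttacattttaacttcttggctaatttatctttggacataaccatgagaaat

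The marked run of 18 bases begins 56 bases before the start in UGT2B15 and 55 bases before it in UGT2B10 and UGT2B11. It occurred in 3 of 35116 promoters of the same length, both strands searched, which are those of the 3 genes themselves. UGT2B7 does not hold it. The run was picked because these 3 similar promoters share it, so its presence in them was fixed in advance. Whether the run has a part in the UGT2B levels was not tested. The longest run common to all 4, taaacataaaag, is 12 bases long, begins 175 to 182 bases before the start and occurred in 6 of the 35116 promoters. Over the 250 bases, UGT2B10 and UGT2B11 were 93.1% identical, UGT2B15 was 79.7% identical to UGT2B10 and 80.1% to UGT2B11, and UGT2B7 was 68.6% to 73.0% identical to the others. These promoters were poor in G and C, from 28.4% in UGT2B15 to 32.8% in UGT2B7, against a median of 58% over all promoters.

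Short motifs were searched on both strands in the same windows. The AP-1 motif TGANTCA was in 0 of the 4 windows and in 6.57% of all promoters. The forkhead motif TGTTTAC was found in UGT2B15 alone, on the minus strand 177 to 183 bases before the start, and in 2.98% of all promoters. TATAAA was in UGT2B10 and UGT2B11, at positions from 174 to 248 bases before the start, and in 10.7% of all promoters. No match overlapped another motif. A match of a few letters describes the sequence and does not show binding.

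The remaining UDP-glucuronosyltransferases were within 2-fold where they were measured. Of 15 other such genes, 3 were measured and 0 were at least 2-fold higher or lower, with a median log2 ratio of -0.43 (-0.07 after centring). Over all genes 8.44% were higher and 25.5% lower, so a count of 0 among 3 genes does not set them apart. UGT1A1 and UGT1A6 also lay near the 1 TPM added, which shrinks their ratios. UGT1A1, the bilirubin-conjugating enzyme, was at 2.31 TPM in shEIF3F and 1.35 TPM in shCON. UGT1A6, which acts on small phenols, was at 1.05 TPM in shEIF3F and 1.76 TPM in shCON. UGT8, the ceramide galactosyltransferase, was at 7.06 TPM in shEIF3F and 11.4 TPM in shCON. UGT1A3, UGT3A1 and UGT3A2 were listed at 0 in shEIF3F and below 1 TPM in shCON, UGT1A4 was at 0.04 TPM in both, and 7 of the 15 were listed at 0 in both. The UGT1A genes share most of their exons, and their sum was 3.40 TPM in shEIF3F and 3.50 TPM in shCON. The UGT2B sum was thus 26.7 times the UGT1A sum in shEIF3F and 1.82 times in shCON.

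Genes listed for the supply of UDP-glucuronic acid and its precursors, together with transporter genes of the SLC35 family, went both ways. Of 9, all measured, 2 were higher by 2-fold or more, both of them SLC35 transporter genes, and 2 were lower. Their median was -0.05 (0.31 after centring, when 3 were higher and 2 lower). Over all genes the shares were 8.44% higher and 25.5% lower as deposited, and 14.7% and 16.0% after centring. UGDH, which makes UDP-glucuronic acid, was at 199 TPM in shEIF3F and 112 TPM in shCON (log2 ratio 0.83, and 1.19 after centring). SLC35D1, which carries UDP-glucuronic acid into the endoplasmic reticulum, was at 2.42 TPM in shEIF3F and 0.34 TPM in shCON (1.35). The nucleotide-sugar transporter gene SLC35D2 was at 76.9 TPM in shEIF3F and 8.16 TPM in shCON (3.09). UGP2, which makes the precursor UDP-glucose, was at 8.46 TPM in shEIF3F and 13.2 TPM in shCON (-0.58). The hexokinase genes HK1 (7.06 TPM in shEIF3F, 58.5 TPM in shCON) and HK2 (1.49 TPM in shEIF3F, 12.1 TPM in shCON) were lower. SLC35B1 was at 81.6 TPM in shEIF3F and 84.3 TPM in shCON.

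Transporters that carry glucuronides out of cells were in part higher. Of 11 genes for export, uptake and hydrolysis, 7 were measured, 3 were at least 2-fold higher and 0 lower, with a median of 0.95 (1.31 after centring, when 5 were higher). Over all genes 8.44% were higher and 25.5% lower as deposited, and 14.7% and 16.0% after centring. The export pump ABCC2 was at 17.3 TPM in shEIF3F and 4.99 TPM in shCON (log2 ratio 1.61). ABCC3, also a glucuronide exporter, was at 75.8 TPM in shEIF3F and 23.0 TPM in shCON (1.68). The efflux pump ABCG2 was at 20.04 TPM in shEIF3F and 4.38 TPM in shCON (1.97). Of the other measured pumps, ABCC1 was at 4.01 TPM in shEIF3F and 6.42 TPM in shCON (-0.57). ABCC5 was at 14.17 TPM in shEIF3F and 7.05 TPM in shCON (0.91, and 1.27 after centring). SLCO2B1, the only uptake transporter measured, was at 5.78 TPM in shEIF3F and 2.51 TPM in shCON (0.95, and 1.31 after centring). The lysosomal enzyme GUSB, which removes glucuronic acid again, was at 25.0 TPM in shEIF3F and 42.5 TPM in shCON (-0.74). Steroid sulfation, the other main conjugation route, had 4 of 8 genes measured, of which 0 were higher and 1 lower, SULT1A1, at 3.62 TPM in shEIF3F and 9.49 TPM in shCON (-1.18, and -0.83 after centring). PAPSS1, which makes the sulfate donor, was at 40.4 TPM in shEIF3F and 56.8 TPM in shCON, PAPSS2 at 5.66 TPM in shEIF3F and 6.68 TPM in shCON, and SULT2B1 at 3.41 TPM in shEIF3F and 4.28 TPM in shCON. The list's median was -0.37, against -0.36 for all genes.

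**Figure D5:**
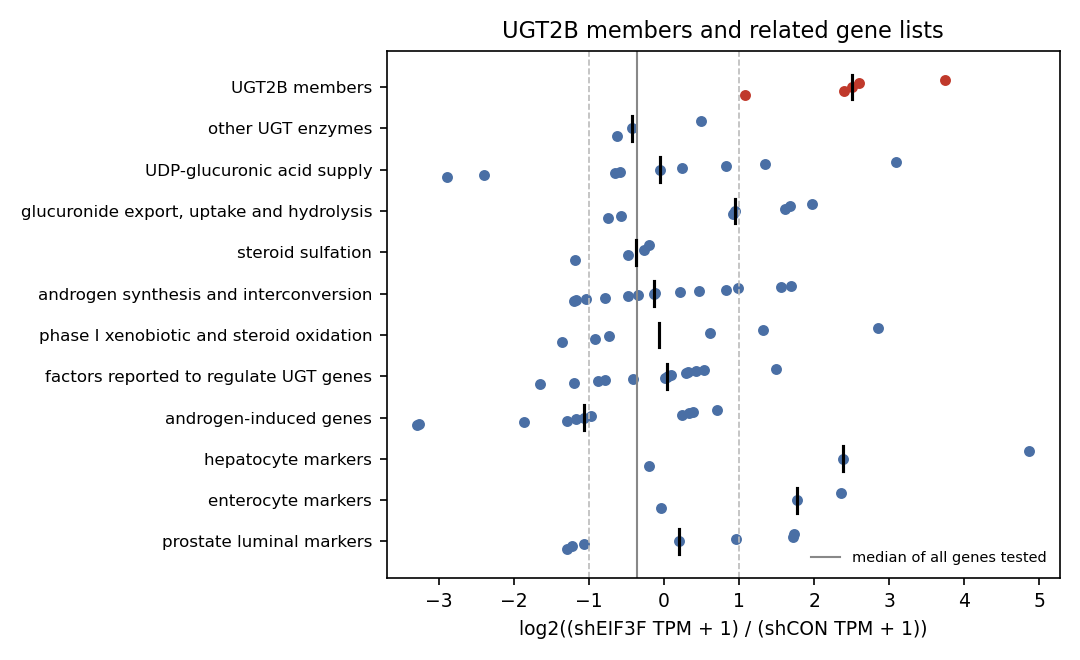
Log2 ratio of shEIF3F over shCON (x axis, 1 TPM added) for every measured gene of the UGT2B family (red) and in the related lists (blue, 1 row per list), with black bars at list medians, a grey line at the median of all genes (-0.36) and dashed lines at 2-fold. The UGT2B points all lie right of the upper dashed line. The points for steroid sulfation all lie below 0, and those of the other enzyme lists spread to both sides of 0.

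Among 21 genes of androgen synthesis and interconversion, 14 were measured, 2 were at least 2-fold higher and 3 lower, with a median of -0.13 (0.23 after centring, when 4 were higher and 0 lower). Over all genes the shares were 8.44% higher and 25.5% lower as deposited, and 14.7% and 16.0% after centring. AKR1C2, which reduces dihydrotestosterone to androstanediol, a substrate of UGT2B15 and UGT2B17, was at 180.5 TPM in shEIF3F and 60.6 TPM in shCON (log2 ratio 1.56). AKR1C3, which makes testosterone, was at 56.6 TPM in shEIF3F and 16.8 TPM in shCON (1.69). AKR1C1 of the same family was at 19.5 TPM in shEIF3F and 16.6 TPM in shCON (0.22). Sharing of reads among the AKR1C genes was not examined. The lower genes were SRD5A1, a steroid 5-alpha-reductase (6.33 TPM in shEIF3F, 15.6 TPM in shCON), CYP11A1 (0.79 TPM in shEIF3F, 3.12 TPM in shCON) and HSD3B1 (0.65 TPM in shEIF3F, 2.38 TPM in shCON). HSD17B10 was at 256 TPM in shEIF3F and 281.5 TPM in shCON, HSD17B4 at 56.1 TPM in shEIF3F and 97.4 TPM in shCON, and HSD17B11 at 49.7 TPM in shEIF3F and 24.6 TPM in shCON (0.99). Phase I oxidation genes had 6 of 15 measured, 2 higher and 1 lower (median -0.06, and 0.30 after centring). CYP1A1, the classic target of the aryl hydrocarbon receptor, was at 69.2 TPM in shEIF3F and 8.73 TPM in shCON (2.85), and CYP2C8 at 6.80 TPM in shEIF3F and 2.12 TPM in shCON (1.32). The lower gene was the cytochrome P450 reductase POR, at 27.5 TPM in shEIF3F and 72.0 TPM in shCON (-1.36, and within 2-fold after centring). CYB5A was at 170 TPM in shEIF3F and 111 TPM in shCON, and CYB5R3 at 33.9 TPM in shEIF3F and 57.2 TPM in shCON.

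Factors reported to regulate UGT genes mostly stayed within 2-fold. Of 21, 14 were measured, 1 was higher and 2 were lower, with a median of 0.05 (0.40 after centring, when 1 was higher and 1 lower), where 8.44% of all genes were higher and 25.5% lower. The aryl hydrocarbon receptor gene AHR was at 3.20 TPM in shEIF3F and 0.49 TPM in shCON (log2 ratio 1.495), whereas its partner ARNT was at 3.97 TPM in shEIF3F and 14.6 TPM in shCON (-1.65) and the nuclear receptor partner RXRA at 4.43 TPM in shEIF3F and 11.5 TPM in shCON (-1.20, and -0.84 after centring). The pioneer factor FOXA1 was at 88.6 TPM in shEIF3F and 82.8 TPM in shCON. PBX2 was at 23.4 TPM in shEIF3F and 22.6 TPM in shCON.

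Some androgen-induced genes were lower in shEIF3F, where UGT2B15 and UGT2B17 were higher. Of 12, 11 were measured, 0 were at least 2-fold higher and 6 lower, with a median of -1.07 (-0.71 after centring, when 3 were lower and 1 higher), where 25.5% of all genes were lower as deposited and 16.0% after centring. KLK2 was at 2.50 TPM in shEIF3F and 32.6 TPM in shCON (log2 ratio -3.26), KLK4 at 10.8 TPM in shEIF3F and 114 TPM in shCON (-3.29) and KLK3 at 1.94 TPM in shEIF3F and 9.71 TPM in shCON (-1.87). FKBP5 (-1.18) and TMPRSS2 (-1.29) were lower as deposited and within 2-fold after centring. PMEPA1, also induced by androgen, was at 91.7 TPM in shEIF3F and 77.4 TPM in shCON, and NDRG1 at 33.0 TPM in shEIF3F and 65.7 TPM in shCON. The list was mixed, and ELL2 was at 27.6 TPM in shEIF3F and 16.5 TPM in shCON (0.71, and 1.07 after centring). ACSL3 (0.39) and SLC45A3 (0.34) also had higher values in shEIF3F, within 2-fold. Whether androgen signalling had a part in the UGT2B values was not tested.

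The UGT2B genes are abundant in liver and gut, so markers of those tissues are given beside them. Of 7 hepatocyte markers, 3 were measured, and the list summed to 1048 TPM in shEIF3F and 198 TPM in shCON. Almost all of this was albumin, ALB, at 1011 TPM in shEIF3F and 193.5 TPM in shCON (log2 ratio 2.38). The thyroid hormone carrier TTR was at 32.2 TPM in shEIF3F and 0.14 TPM in shCON (4.86). APOA1 was at 3.37 TPM in shEIF3F and 4.01 TPM in shCON, and SERPINA1 at 1.02 TPM in shEIF3F and 0.55 TPM in shCON. TF was at 0.35 TPM in shEIF3F and 0.08 TPM in shCON, and APOB and FGB were listed at 0 in both. Of 7 enterocyte markers, 3 were measured, with a sum of 206 TPM in shEIF3F and 135 TPM in shCON. CDH17 was at 29.2 TPM in shEIF3F and 4.91 TPM in shCON (2.35), LGALS4 at 69.2 TPM in shEIF3F and 19.6 TPM in shCON (1.77) and VIL1 at 107 TPM in shEIF3F and 109.8 TPM in shCON (-0.03). APOA4 was at 0.05 TPM in shEIF3F and 0.47 TPM in shCON, while FABP2 and ALPI were listed at 0 in both. Of the 7 prostate luminal markers, which summed to 1323 TPM in shEIF3F and 858 TPM in shCON, 2 were higher, EPCAM (1.73) and FOLH1 (482 TPM in shEIF3F, 146 TPM in shCON), and 3 lower, among them TMPRSS2 and HOXB13 (-1.23). After centring 3 were higher and 0 lower. Among all genes 8.44% were higher and 25.5% lower as deposited, and 14.7% and 16.0% after centring. The part of these markers in the UGT2B result was not tested.

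The genes nearest to UGT2B15 in their pair of log2(TPM + 1) levels were SEC22B4P (53.9 TPM in shEIF3F, 3.41 TPM in shCON), a pseudogene, and OSBPL9 (57.5 TPM in shEIF3F, 5.37 TPM in shCON), a lipid-binding protein gene. HOPX (42.2 TPM in shEIF3F, 3.6 TPM in shCON), PPP1R3F (41.9 TPM in shEIF3F, 4.66 TPM in shCON) and the antisense transcript AC020909.3 (81.6 TPM in shEIF3F, 2.18 TPM in shCON) followed. This likeness rests on 2 libraries.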

How the data were processed

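Total RNA was extracted with Trizol and made into libraries with an Illumina TruSeq RNA kit, per the labels' protocols. The authors deposited 1 TPM value per gene and library, rounded to 2 decimals and summing to 994055 in shEIF3F and 992454 in shCON. Per the submitters' processing notes, CASAVA and HISAT2 (no versions) and the build hg19 were used. No source used here gives the gene counter, the annotation or the use of strand. Depth is unknown, so no interval or detection limit was computed.

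The table held 58884 entries. Entries that repeat a symbol (1533) were summed, and 27 entries whose symbols had become dates and 5530 small RNA symbols were left out. GC content, length, coding sequences and gene order came from GENCODE release 29. It describes GRCh38, while the notes name hg19, so printed coordinates belong to the sequences alone. Promoters came from RefSeq (GRCh38.p14), with an entry for 4 of the 7 members. Motifs and shared windows were exact matches. Coding and promoter identities came from global alignments in Biopython 1.88. Ratios were computed with pandas 2.3.3 and NumPy 2.4.6 under Python 3.11.15, figures were drawn with matplotlib 3.10.9, and the ratio code was tested on simulated data.

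The members and lists were chosen with earlier results of these data known. The text names every member and UGT2B pseudogene, EIF3F, of each list the genes past 2-fold and the 4 most abundant, and the 5 genes nearest to UGT2B15 by Euclidean distance. Some genes and motifs that were covered are not reported here. UGT1A4, UGT3A1, UGT3A2, UGP2, TF, AKR1C1, ABCC1, ABCC5, SLCO2B1, ELL2, ACSL3 and SLC45A3 are outside that rule. So are the markers listed at 0, the genes flanking the cluster and AC111000.4. All of these were chosen after their values were seen. Alternatives were pseudocounts of 0.1 and 5 TPM, no minimum or a mean of 5 TPM, centring on the median of all genes, rescaling without the 100 most abundant genes, removal of the GC or length trend in 20 bins, the most abundant entry per symbol and small RNA genes kept.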

Additional observations from a re-analysis of the deposited data

How the results depend on the processing

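No paired analysis was possible because each group had 1 library, and for the same reason no library could be left out. The UGT2B family log2 ratio lay between 3.08 and 4.04 under every alternative tried for it. Of 48 member ratios under alternatives, 47 stayed on the same side of 2-fold, and the exception was UGT2B7 with a pseudocount of 5 TPM (0.35). Taking the most abundant entry per symbol or keeping small RNA genes left every member ratio unchanged, so those settings tested nothing for the members. UGT2B4, counted among the 48, was below the minimum. At a mean of 5 TPM or more, 2 members, UGT2B15 and UGT2B10, remained and were at least 2-fold higher, since fewer genes enter. The UGT2B15 share of the family sum was 67.5% in shEIF3F and 58.2% in shCON with the pseudogenes added. Over all genes, the 1124 at least 2-fold higher became 475 with a pseudocount of 5 TPM, 616 at a mean of 5 TPM or more, 1958 after centring, 2012 after rescaling, 1780 with the GC trend removed and 1948 with the length trend removed. The 3400 lower became 1898 with a pseudocount of 5 TPM, 2131 after centring, 2113 after rescaling, 1859 with the GC trend removed and 2175 with the length trend removed. Higher genes made up 24.8% of those past 2-fold as deposited and 47.9% after centring. Of 216 list counts under alternatives, 46 moved by more than 1.5 times or changed to or from 0, and the cause was not tested. Values under 1 TPM, among them all shCON values of UGT2B7, UGT2B11, UGT2B17 and UGT2B4, rest on an unknown and possibly small number of reads.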
